A study of Homo sapiens with 54 samples.

Results

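Gene expression after transfection of miR-15b* was compared with that after a negative control RNA in the human cell line H4, described as glioneuronal, once in RNA bound to Argonaute and once in total RNA. The arrays were chosen by their titles: miR-15b and Neg Control, each as Argonaute immunoprecipitate (IP) and as total lysate, with 3 biological replicates in each of the 4 groups, 12 of the 54 arrays of the series. Cells were transfected with a miRNA mimic and harvested after 48 h, and the IP was made with the anti-Argonaute monoclonal antibody 2A8. The titles write miR-15b where the series' design names miR-15b*, and the labels also describe this RNA as an antisense control, and both groups were transfected. The control was a negative control miRNA from Ambion. The transfected sequences were not given in the sources used here. The other 42 arrays hold miR-16, miR-195, miR-103, miR-107, miR-320 and a pair of altered forms of miR-107 (mut1 and mut2, titled Mut M1 and Mut M2), and are used to show which differences the other transfections also had.

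A microRNA precursor is cut to a duplex, and usually 1 strand stays in Argonaute and guides it to messenger RNAs, most often through pairing of its seed (bases 2 to 8). The strand found less often was formerly marked with a star, and miR-15b* is the earlier name of miR-15b-3p. Targeted messages are destabilised or less translated, and while bound they can be recovered with Argonaute. The mature sequences from RefSeq (GRCh38.p14) are shown with the seed in capitals, because miR-15b* does not carry the seed of the family it is named after.
hsa-miR-15b-3p: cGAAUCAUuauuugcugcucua
hsa-miR-15b-5p: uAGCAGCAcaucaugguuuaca
hsa-miR-16-5p: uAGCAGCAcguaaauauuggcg
hsa-miR-195-5p: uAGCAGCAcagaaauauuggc
hsa-miR-107: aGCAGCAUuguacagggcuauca
The seeds of miR-15b-5p, miR-16-5p and miR-195-5p were identical, and that of miR-15b-3p had 0 of 7 bases in common with them, position by position. Counted the same way, the miR-107 seed had 5 of 7 bases in common with that of miR-15b-3p. Both miR-15b strands come from the MIR15B hairpin at chr3:160404588-160404685 (plus strand), inside the span of SMC4, a condensin subunit gene. The hairpin is shown with the star strand, its bases 58 to 79, in capitals.
MIR15B hairpin: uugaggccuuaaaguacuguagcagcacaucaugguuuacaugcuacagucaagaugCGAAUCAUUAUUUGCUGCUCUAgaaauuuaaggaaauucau

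Array means of the deposited log2 values lay between 3.61 and 3.65 in the IP and between 7.11 and 7.17 in the lysates, which points to separate normalization of the fractions, and levels are not compared between them. Across genes, control replicates correlated at 0.952 to 0.967 (IP) and 0.981 to 0.995 (lysate), and miR-15b* replicates at 0.767 to 0.926 (IP) and 0.889 to 0.99 (lysate). Replicate 1 of the miR-15b* IP and replicate 2 of the miR-15b* lysate lay apart: their median correlations with arrays of other groups, 0.821 and 0.864, were the lowest of the 27 arrays of their fraction. Results are therefore also given without them. Vimentin (VIM), an intermediate filament counted here among the astroglial markers, was at 12.5 ± 0.08 (SD, n = 3) in the miR-15b* lysates. The astroglial GFAP was at 6.8 ± 0.25, the neuronal RBFOX3 at 7.57 ± 0.28 and the haematopoietic PTPRC at 3.49 ± 0.09. Other markers of these types went the other way, with CD68 (haematopoietic) at 10.56 ± 0.4, DCX (neuronal) at 5.34 ± 0.13 and AQP4 (astroglial) at 4.6 ± 0.14. The epithelial KRT18 was at 10.24 ± 0.33. The filter on low values left 7 of 13 neuronal, 6 of 10 astroglial, 5 of 7 oligodendroglial, 1 of 7 haematopoietic, 4 of 6 epithelial and 0 of 5 endothelial markers. These levels alone do not name the cell type. The number of arrays limits the precision, and in bulk samples fewer cells of a type and less RNA per cell cannot be told apart.

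In the total lysate, miR-15b* cells had less RNA for the machinery of DNA replication and for a few adhesion and metabolic genes than control cells, and more for WNT7B, the ubiquitin ligase FBXO32 and JUN. Of 11050 genes tested with limma (Benjamini-Hochberg adjusted p under 0.05), 833 were called, 7.54% of all, with 387 higher and 446 lower, beside a median difference of 0.05 over all genes. Before any test, the 3 miR-15b* arrays lay wholly above or below the 3 controls for 2756 genes, 24.9% of those tested. Without lysate replicate 2 of miR-15b*, 617 genes were called (273 higher, 344 lower), and 499 of the 833 were among them. Without control replicate 2 the count was 386 and without control replicate 3 it was 488. Fitted on the miR-15b* and control lysates alone, without the spread of the other groups, limma called 50 (16 higher, 34 lower). Set against the mean of the other transfections, the called replication genes were higher instead, and WNT7B, FBXO32 and JUN were not called.

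WNT7B, a secreted Wnt ligand, was at 9.37, 10.35 and 9.81 in the miR-15b* lysates and at 7.96, 7.24 and 7.90 in the controls. The difference was 2.14 ± 0.27 (SE) or 4.42-fold (adjusted p = 2.4e-05). All miR-15b* arrays were above all controls, but lack of overlap was a condition for naming the largest rises and falls. FBXO32, a ubiquitin ligase of muscle atrophy, rose by 1.86 ± 0.22 (adjusted p = 9.6e-06), from 9.50, 8.78 and 9.57 to 11.31, 10.76 and 11.36. JUN, the AP-1 transcription factor, was nearly level among the miR-15b* arrays at 10.66, 10.52 and 10.65, with controls at 9.53, 8.65 and 9.09, a rise of 1.51 ± 0.22 (adjusted p = 0.00011). The other large rises without overlap were TMEM171 (1.76), SNRPC (1.54), a protein of the U1 splicing particle, NRXN3 (1.51), a presynaptic adhesion protein, PLAU (1.47), the urokinase protease, TFAP2C (1.45), ADAMTS14 (1.44) and PDGFRL (1.39).

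TDO2, which opens the tryptophan ring at the start of the kynurenine pathway, fell furthest, by 3.20 ± 0.54 (adjusted p = 0.00046), with miR-15b* lysates at 7.09, 5.22 and 7.15 and controls at 9.17, 10.05 and 9.83. Replicate 2 was the low one, and without it the fall was 2.56 (adjusted p = 0.0042). CBLN2, a cerebellin that links synaptic partners, was tightly low at 7.08, 6.99 and 7.1 against 9.61, 10.84 and 9.79, a fall of 3.02 ± 0.23 or 8.14-fold (adjusted p = 6.3e-08). The complement protein C3 was at 8.02, 9.04 and 8.11 against 11.02, 10.75 and 10.54 and fell by 2.38 ± 0.33 (adjusted p = 5.9e-05). In all 3 genes the groups did not overlap, as the choice of named genes required.

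The remaining large falls were CDH10 (-2.81), a classical cadherin, CAPN6 (-2.38), a calpain-family protein, AKR1C2 (-2.26), a steroid-reducing enzyme, PI15 (-2.10), DEPTOR (-2.05), an inhibitor of mTOR, LYN (-1.97), a Src-family kinase, and EPHA4 (-1.93), an ephrin receptor. AKR1C2 has a near-identical neighbour, AKR1C1 (-1.87), and the array may not separate them. PI15 rested on 1 array: it was at 10.99, 9.02 and 11.31 against 12.20, 12.53 and 12.88, and without replicate 2 its difference was -1.39 with an adjusted p of 0.19. Of the 20 genes named from these extremes, the other 19 kept their call without that array. The plot of the 20 genes shows every array beside the range of the other transfections.

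**Figure D1:**
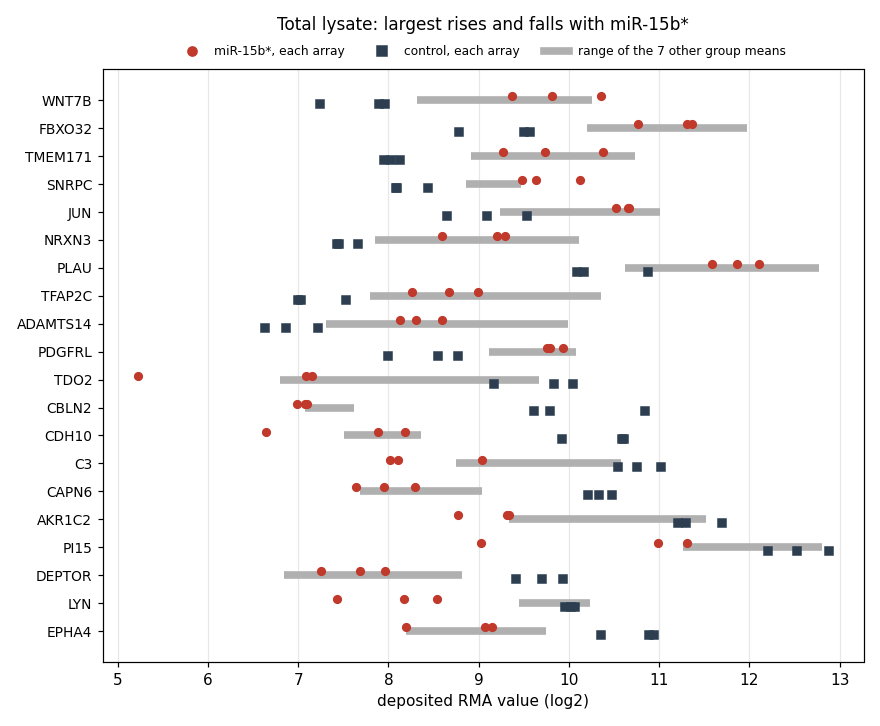
Deposited log2 values of the 10 largest rises and 10 largest falls in the total lysate, with 1 point per array for miR-15b* (circles) and control (squares). Grey bars run from the lowest to the highest mean of the 7 other transfections: for WNT7B they reach 10.25 and for CBLN2 7.62, while LYN in miR-15b* lies below its bar, which starts at 9.45.

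Several of these genes lay near the mean level of the other transfections. The comparison with those transfections uses no control array but the same miR-15b* arrays. CBLN2 had group means of 7.08 to 7.62 in the 7 others, and its difference from their mean was -0.35 ± 0.18 (adjusted p = 0.19). CAPN6 differed from them by -0.18 ± 0.14 (adjusted p = 0.4), and EPHA4 by -0.04 ± 0.19 (adjusted p = 0.89). For WNT7B the difference was 0.43 ± 0.21 (adjusted p = 0.17), and for FBXO32 -0.23 ± 0.17 (adjusted p = 0.37). Single groups departed from that mean: WNT7B was at 8.12 to 8.44 with mut1, and CAPN6 at 8.73 to 9.33 with miR-320. A p above the threshold does not show that levels were equal.

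LYN differed from the control and from the others. It was at 8.54, 7.43 and 8.17 with miR-15b*, at 9.96, 10.07 and 10.02 in the controls, and at group means of 9.45 to 10.23 in the others, 1.86 ± 0.19 lower than their mean (adjusted p = 9e-07). TDO2 (-2.15, adjusted p = 0.00097) and C3 (-1.50, adjusted p = 0.00026) were also lower than in the others, and AKR1C2 (-1.05, adjusted p = 0.00016). SNRPC was higher, by 0.71 (adjusted p = 0.005), but not without replicate 2 (adjusted p = 0.1).

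A set of transcripts had lower levels in all 3 miR-15b* lysates than in every one of the other 24 lysate arrays. There were 91 such genes, 0.824% of those tested, and 48 (0.434%) lay above all 24. With replicate 2 of miR-15b* left out, which leaves 2 arrays to clear the range, the counts were 203 and 109. These genes were picked for their values here, so the values are a description with no test. The gap to the nearest other array was a median of 0.16 and up to 1.14 below the range, and a median of 0.04 and up to 0.18 above it. The low side therefore held the wide gaps: 11 genes lay at least 0.5 below every other array, and 0 lay that far above. In the IP, 9 genes (0.0814%) lay below and 5 (0.0452%) above all 24 other IPs, with the ribosomal protein genes RPL28, RPL23 and RPS28 among the latter.

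ETNK2, an ethanolamine kinase of phospholipid synthesis, had the widest gap. It was at 9.29, 9.58 and 9.13 with miR-15b*, and all other lysates lay between 10.71 and 11.36. STRADB, a pseudokinase partner of LKB1, was at 9.73, 9.53 and 10.08 with a range elsewhere of 11.04 to 11.86. DYNLT1, a dynein light chain, was at 8.56, 8.68 and 8.51 against 9.59 to 10.31.

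NID2, a nidogen of basement membranes, was at 8.31, 8.54 and 8.41 against 9.35 to 9.98. COPS8, a subunit of the COP9 signalosome, was at 6.53, 6.36 and 6.70 against 7.40 to 8.03. The other 6 with gaps of at least 0.5 were RASSF2 (0.68), NIT2 (0.66), CD24 (0.60), LYN (0.54), PLEKHA2 (0.53) and LASP1 (0.52), an actin-binding protein. Just short of that limit stood CAP2 and GLO1, both with a gap of 0.47. In ETNK2, DYNLT1, NID2 and RASSF2 the array that lies apart, replicate 2, was the highest of the 3. It was the lowest in STRADB, COPS8, NIT2, CD24 and LYN, and in the middle in PLEKHA2 and LASP1.

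**Figure D2:**
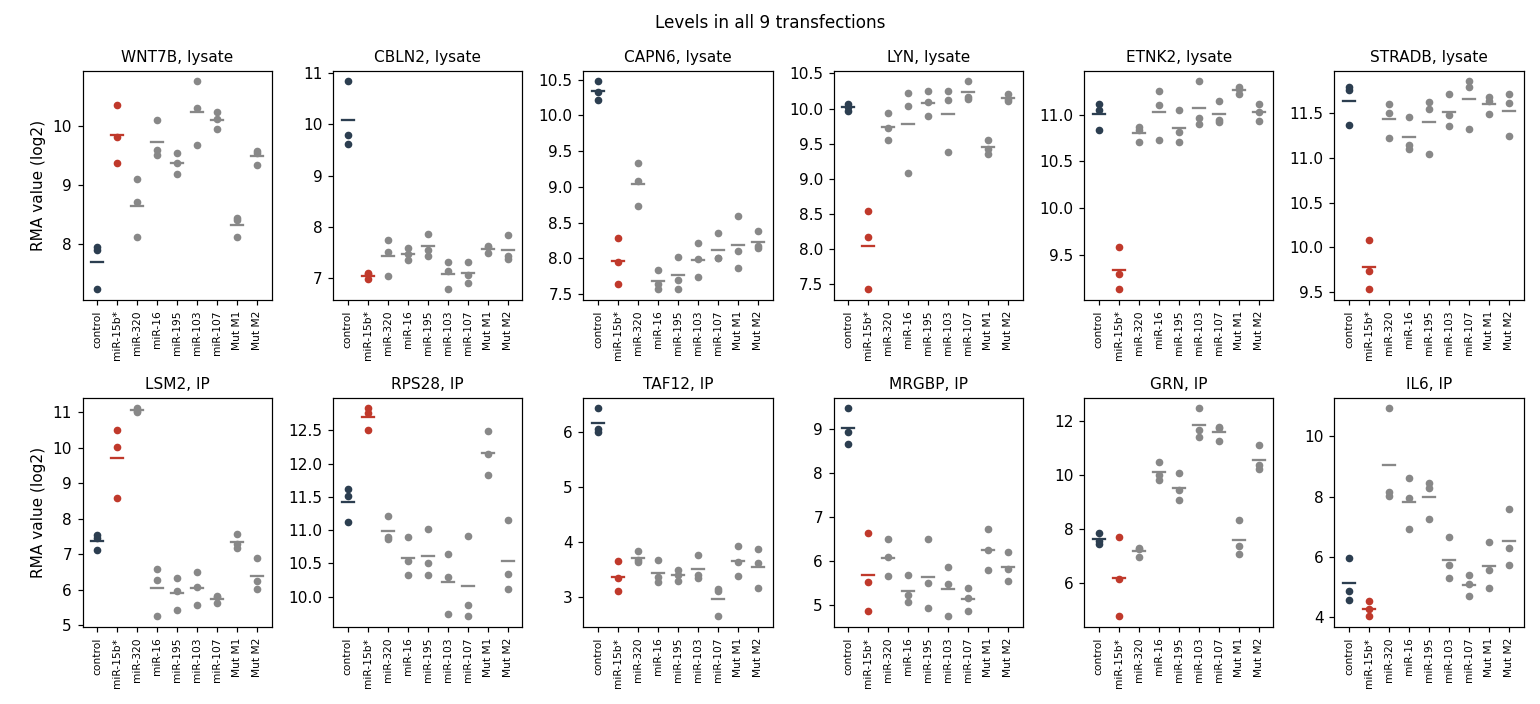
Log2 values of 6 genes in the lysate (upper row) and 6 in the IP (lower row) for all 9 transfections, with a point per array and a line at each group mean. CBLN2 and CAPN6 set the control above the other groups, and WNT7B is lowest in the control, with mut1 next (8.12 to 8.44). ETNK2, STRADB and LYN are low in the miR-15b* lysates. LSM2 is high in the miR-15b* and miR-320 IPs, and TAF12 and MRGBP are high in the control IP.

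Genes of DNA replication fell together against the control. Of 39 tested members of the list, 17 fell and 0 rose, beside 4.04% of all genes that fell, and the list's median was -0.56. They included the helicase subunits MCM2 to MCM5 and MCM7, the GINS proteins that complete the helicase, the clamp loader subunits RFC2, RFC3 and RFC5, and TK1 and RRM1, which supply nucleotides. GINS2 was at 9.58, 10.53 and 9.99 against 11.17, 11.39 and 11.20, a fall of 1.22 ± 0.29 (adjusted p = 0.0093). DTL, which marks CDT1 for destruction, was at 8.88, 9.14 and 9.29 against 10.09, 10.56 and 10.22, and fell by 1.19 ± 0.22 (adjusted p = 0.0015). Neither gene's groups overlapped, and without replicate 2 the list had 20 falls and a median of -0.63. Against the mean of the other transfections, 16 of the 39 were instead higher and 0 lower, with a list median of 0.39. Without replicate 2, 8 were higher and 0 lower. For most of the list, that mean therefore lay further below the control than miR-15b* did. The fall against the control was thus not particular to miR-15b*.

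Around that step, 4 of 27 tested genes of the G1 to S step fell and 0 rose: CCND2 (-1.24), a D-type cyclin, E2F7 (-1.18), TFDP1 (-0.74) and CDK2 (-0.61). Without replicate 2, 5 fell and 1 rose. Mitosis and histone genes were called lower about as often as the 4.04% of all genes, though most members lay below 0. Of 30 mitosis genes, 2 fell, the transcription factor FOXM1 (-0.96) and survivin, BIRC5 (-0.85), with a list median of -0.31. Below 0 were 28 of the 30, and 29 without replicate 2, beside medians over all genes of 0.05 and 0.02. Of 35 replication-dependent histone genes, H4C8 fell (-0.43, but not without replicate 2, adjusted p = 0.11), with a median of -0.12. Of these 35, 27 lay below 0, and 34 without replicate 2, with a median of -0.3. PLK1, the mitotic kinase, was at 11.87, 12.39 and 11.90 against 12.17, 12.09 and 12.23 in the controls, groups that overlapped (difference -0.11 ± 0.19, adjusted p = 0.73).

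Set beside miR-16 and miR-195, which carry the family seed and are known for restraining entry into S phase, miR-15b* cells had higher RNA for mitosis, histones and DNA replication. Against the mean of those groups 1916 of 11050 genes were called (17.3%, with 8.41% higher and 8.93% lower), and 29 of 30 mitosis genes were higher and 0 lower, with a list median of 1.39. The same held for 31 of 35 histone genes (median 0.98) and 22 of 39 replication genes (median 0.46), with 0 lower in both. Genes of the G1 to S step were mixed, with 5 of 27 higher and 3 lower, the D-type cyclins CCND1 (-1.04) and CCND2 (-0.80) and TFDP1 (-0.49), and a median of 0.10. CCNB1, the mitotic cyclin, was at 9.63, 9.87 and 9.94 with miR-15b* and at 7.88 ± 0.25 and 7.83 ± 0.05 (SD, n = 3) with miR-16 and miR-195, a difference of 1.96 ± 0.14 (adjusted p = 5.3e-09). Its control level was 10.15 ± 0.06. Without replicate 2 the counts were 28 for mitosis, 25 for histones and 15 for replication.

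The largest differences in this direction were KIF20A (2.36), CCNB2 (2.19), PLK1 (2.10), SEMA3D (2.04), PTTG1, KIF18B, CCNB1, PRR11, SPAG5 and CDKN3, most of them genes of mitosis. KIF20A, a kinesin of cytokinesis, had means of 8.45 with miR-16, 8.60 with miR-195, 8.98 with miR-103, 9.24 with miR-107 and 9.37 with mut2. Its means were 10.9 with miR-15b*, 11.4 with mut1, 10.9 with miR-320 and 11.2 with the control. The transfections thus fell on either side of a gap between 9.37 and 10.9, with miR-15b* on the side of the control.

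**Figure D3:**
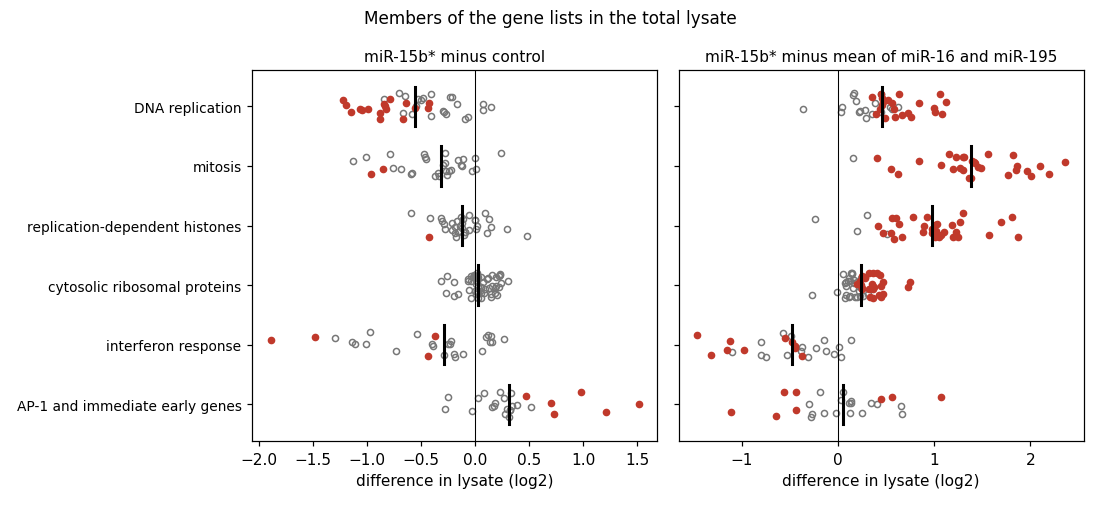
Log2 differences in the total lysate for members of 6 gene lists, miR-15b* minus control on the left and minus the mean of miR-16 and miR-195 on the right. Each circle is a gene, filled where called, and the bar is the list's median: -0.56 for DNA replication on the left, and 1.39 for mitosis and 0.98 for histones on the right.

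Against the mean of all 7 other transfections, 1739 genes were called (15.7%, with 8.76% higher and 6.98% lower), and 751 without replicate 2. Mitosis (22 of 30), histones (32 of 35), replication (16 of 39) and cytosolic ribosomal proteins (27 of 55) had members that were higher and 0 that were lower. The largest were SPC24 (1.63), a kinetochore protein, ANKRD52 (1.62), KIF18B (1.56), H2AC15, SEMA3D, SMPD1, PLK1, H2BC10, KIF20A and MYBL2. Replicate 2 read high for several: SPC24 was at 8.21, 9.52 and 8.71, and H2AC15 at 10.94, 12.32 and 11.28. Without that array the counts were 22 for mitosis, 15 for histones, 8 for replication and 10 for ribosomal proteins, and over all genes 330 were higher and 421 lower, where the full set had 968 and 771.

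The promoters of these lists are shown because members moved together. In the RefSeq windows of 250 bases before to 50 after each start (GRCh38.p14), the E2F letters TTTCCCGC, TTTGGCGC, TTTCGCGC or TTTGCCGC, on either strand, were found in 16 of 35 replication promoters (45.7%), in 1 of 24 mitosis promoters (4.17%), in 5.13% of 8777 promoters of tested genes and in 3.33% of all 27305. The cell cycle homology letters TTTGAA or TTCGAA were in 2 of the replication promoters (5.71%), in 14 of the mitosis promoters (58.3%), and in 881 of the 8777 and 16.6% of all. The sets were searched separately, and a stretch could count for both. An example of each follows, with the match in capitals: GINS2 at chr16:85688905-85689204 (minus strand) with the E2F letters 31 bases before the start, and the cyclin kinase subunit gene CKS1B at chr1:154974431-154974730 (plus strand) with the homology letters 30 bases before it. A match describes letters in the window and is not a site shown to be used.
GINS2: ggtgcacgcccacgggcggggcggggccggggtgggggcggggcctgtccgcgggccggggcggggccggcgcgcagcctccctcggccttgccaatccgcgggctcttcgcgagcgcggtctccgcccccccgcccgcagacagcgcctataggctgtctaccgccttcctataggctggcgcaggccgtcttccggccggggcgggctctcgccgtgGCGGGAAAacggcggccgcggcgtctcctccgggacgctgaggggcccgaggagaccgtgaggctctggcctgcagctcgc
CKS1B: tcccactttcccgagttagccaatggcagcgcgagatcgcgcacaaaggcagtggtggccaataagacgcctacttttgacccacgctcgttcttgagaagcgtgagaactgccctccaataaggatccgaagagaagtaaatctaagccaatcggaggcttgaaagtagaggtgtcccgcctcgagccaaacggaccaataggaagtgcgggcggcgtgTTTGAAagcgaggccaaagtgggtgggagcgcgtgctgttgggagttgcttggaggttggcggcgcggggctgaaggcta
CKS1B itself was at 11.94, 12.09 and 12.03 against 12.52, 12.44 and 12.46 in the controls (difference -0.45 ± 0.15, adjusted p = 0.069) and 1.15 ± 0.13 above miR-16 with miR-195 (adjusted p = 1.5e-06). GINS2 was 0.39 above miR-16 with miR-195 and was not called there, so the examples differ in which comparison called them. The lists did not divide this way throughout. DTL, TK1 and RRM1 of replication and FOXM1 and BIRC5 of mitosis were called in both comparisons.

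Other genes were lower with miR-15b* than with the family members. IL6, an inflammatory cytokine, was at 6.46, 6.94 and 5.86 with miR-15b* and 7.27, 6.53 and 6.04 in the controls, groups that overlapped. With miR-16 and miR-195 it averaged 10.4 ± 1.01 and 10.7 ± 0.66 (SD, n = 3), so miR-15b* was lower by 4.16 ± 0.65 on the log2 scale (adjusted p = 7.7e-05). GPNMB (-3.16), CD24 (-2.92), CPA4, DKK1 (-2.89), a Wnt inhibitor, RAB27B, CDH6 (-2.66), PSG4, CCN1 (-2.40) and STC1 followed. Of 27 YAP-responsive genes 12 were lower and 1, YAP1, was higher. Of 46 matrix genes 13 were lower and 0 higher, and of 27 interferon genes 10 were lower and 0 higher, beside 8.93% of all genes that were lower. Without replicate 2 the lower counts were 11 for YAP-responsive, 7 for matrix and 8 for interferon genes.

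Against the mean of the 7 others, the largest on the low side were IL6 (-2.52), RAB27B (-2.39), CD24 (-2.20), TDO2 (-2.15), STC1 (-2.05), CDH6 (-1.99), CXCL14 (-1.94), LYN (-1.86), CMPK1 (-1.84) and CEMIP2 (-1.70). CMPK1, a nucleotide kinase, was at 9.27, 8.06 and 9.03 with miR-15b*, and the other 24 lysates lay at 9.64 or more. Interferon genes were lower in 13 of 27 and higher in 0, beside 6.98% of all genes that were lower. Without replicate 2, 5 of them were lower. By these levels miR-15b* was near the control for IL6 and away from it for LYN and CMPK1.

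Against the control, interferon genes fell in 4 of 27 tested cases (SAMD9L, TLR3, OAS3 and CMPK2) and rose in 0, beside 4.04% of all genes that fell. Without replicate 2 SAMD9L and TLR3 lost their calls (adjusted p = 0.33 for both), and cyclic loess gave 2 falls. AP-1 and immediate early genes rose in 6 of 25 and fell in 0, beside 3.5% of all genes that rose: JUN (1.51), the phosphatases DUSP5 (1.21) and DUSP1 (0.73), NR4A2 (0.98), MAFF (0.70) and FOSL2 (0.47). Without replicate 2 the count was 3. Against the mean of the other transfections, 2 of the 25 were higher and 2 lower, with a list median of 0.07. The higher ones were JUND (0.69) and NR4A2 (1.09). JUN, DUSP5, DUSP1, MAFF and FOSL2 were not called in that comparison. In the Wnt pathway WNT7B was the sole ligand of 14 that was called against the control. Among 36 receptors and transducers FZD1 (0.62), CTNNB1 (0.53), which encodes beta-catenin, and FZD4 (0.44) rose, and the repressor TCF7L1 fell by 0.93 ± 0.12 (adjusted p = 2.6e-05). Of 15 targets and inhibitors NKD1 (0.52) and ZNRF3 (0.72) rose and SFRP4 (-1.73) fell. Without replicate 2 NKD1 (adjusted p = 0.16) and SFRP4 (adjusted p = 0.15) were not called.

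TCF7L1 was also 0.87 ± 0.09 below the mean of the 7 others (adjusted p = 7.2e-07). It was at 8.44, 8.58 and 8.35 with miR-15b* and at 9.36, 9.25 and 9.54 in the controls, with no overlap. CTNNB1, in contrast, was at group means of 11.5 to 11.8 in the others and at 11.57, 11.17 and 11.60 with miR-15b*. Among 12 cadherins and catenins CDH10, CDH7 (-0.72) and CDH2 (-0.56) fell and CTNND2 (0.41) rose, and without replicate 2 CDH2 (adjusted p = 0.25) and CTNND2 (adjusted p = 0.054) were not called. Over all genes 4.04% fell and 3.5% rose.

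Of 22 tested genes published as targets of the family (miR-15, miR-16 or miR-195), 3 rose (JUN, SMAD7 and MAP2K1) and 2 fell, the G2 kinase WEE1 (-0.77) and PHF19 (-0.74), with a median of 0.05, that of all genes. Over all genes 3.5% rose and 4.04% fell. WEE1 was at 8.90, 8.92 and 9.03 against 9.51, 9.93 and 9.73, without overlap (adjusted p = 0.0013), and its difference from miR-16 with miR-195 was 0.16 ± 0.12 (adjusted p = 0.41). Among 34 genes of Argonaute and microRNA processing DCP1A, a decapping factor, fell (-0.47) and 0 rose, a share below that of all genes, and without replicate 2 DCP1A was not called (adjusted p = 0.1).

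In the Argonaute IP far fewer differences passed. Of 11050 genes 24 were called (0.217%), 1 higher (0.00905%) and 23 lower (0.208%), beside a median difference of -0.17 over all genes, and 69.5% of genes had a difference below 0. The 3 miR-15b* IPs lay wholly above or below the 3 controls for 1020 genes (9.23%). Same-numbered miR-15b* and control IPs deviated together, and with the replicate number as a block 521 genes were called (11 higher, 510 lower). Cyclic loess moved the median to 0.01 and gave 75 calls, split into 27 higher and 48 lower. Without IP replicate 1 the count was 8 (2 higher, 6 lower, 7 of them among the 24), without replicate 2 it was 10, without control replicate 3 it was 6, and without miR-15b* replicate 3 it was 1407 (62 higher, 1345 lower). Fitted on the 6 IP arrays alone, limma called 0, with 481 genes at an unadjusted p under 0.05.

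LSM2, of the Sm-like ring that binds U6 RNA and decapping messages, was the gene that rose. Its IP values were 8.58, 10.03 and 10.50 with miR-15b* and 7.46, 7.11 and 7.55 in the controls, with replicate 1 nearest the controls and no overlap. The rise was 2.33 ± 0.38 or 5.01-fold (adjusted p = 0.0056), and 2.89 without replicate 1 (adjusted p = 0.0001). Among the other IPs the miR-320 mean was higher still at 11.1, and the lowest group mean was 5.75, with miR-107. In the lysates LSM2 instead fell by 0.61 ± 0.19 (adjusted p = 0.048).

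Against the mean of the 7 other IPs, 16 genes were called (0.145%), 4 higher (0.0362%) and 12 lower (0.109%), but 59 higher and 34 lower after cyclic loess, and 965 in all without miR-15b* replicate 3 or 9 without replicate 2. Without replicate 1 there were 20 higher and 1 lower. LSM2 (2.77 ± 0.29, adjusted p = 1.1e-05), RPS28 (1.95), RPL28 (1.08) and the histone gene H2BC9 (1.02) were higher. RPS28, a small ribosomal subunit protein, was at 12.83, 12.76 and 12.50 with miR-15b*, and at 11.62, 11.52 and 11.12 in the controls. These groups did not overlap, but the difference of 1.28 ± 0.31 missed the threshold against the control (adjusted p = 0.085). Of 55 ribosomal protein genes, RPS28 and RPL28 were the 2 that were higher, with a list median of -0.07. That median turned positive without IP replicate 1 (0.31, with 48 of 55 members above 0) and with cyclic loess (0.22).

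GRN, which encodes the growth factor progranulin and is a published target of the miR-107 group, was at 4.78, 6.15 and 7.70 in the miR-15b* IPs and at 7.46, 7.58 and 7.85 in the controls, so the groups overlapped (difference -1.42 ± 0.48, adjusted p = 0.22). The other IPs had means of 7.19 to 11.9, with 11.9 for miR-103 at the top, and miR-15b* lay 3.56 ± 0.36 below their mean (adjusted p = 1.1e-05). IL6 (-2.58), MMD (-2.05), SAT1 (-1.78), SNORD58A, NINJ1, FAM89A, IER3IP1, PCOLCE and CDH6 were the next on the low side. IL6 was at 4.29, 4.54 and 4.03 against 5.97, 4.89 and 4.59 in the controls, and its difference from the others was not called without replicate 1 (adjusted p = 0.075).

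The largest falls against the control IP were MRGBP (-3.36), a subunit of the NuA4 acetyltransferase complex, SLC41A3 (-3.25), KPNA2 (-2.80), a nuclear import receptor, and TAF12 (-2.78), a subunit of TFIID. TAF12 was at 3.11, 3.34 and 3.66 with miR-15b* and at 6.04, 5.99 and 6.42 in the controls (adjusted p = 4.8e-08). The 7 other IPs also had low TAF12, at means of 2.96 to 3.72, and miR-15b* differed from them by -0.09 ± 0.16 (adjusted p = 0.86). The same held for MRGBP, at 4.86, 5.52 and 6.63 against 8.94, 8.67 and 9.48 in the controls and means of 5.13 to 6.25 elsewhere, and for SLC41A3 (4.81 to 5.78 elsewhere). For these 3 genes the control IPs lay above the means of all other groups.

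OSBPL9 (-2.34), NPTN (-2.32), ANXA1 (-2.21), F2RL2 (-2.19), AKR1C1 (-1.78) and MRPL32 (-1.75) completed the 10 largest falls, which were chosen for lack of overlap. KPNA2 was at 4.32, 6.42 and 7.50 against 8.72, 8.72 and 9.20, with replicate 1 the lowest, and without it the difference was -1.92 (adjusted p = 0.27). OSBPL9, NPTN, ANXA1 and F2RL2 also lost their call without that array, and the other 6 of 11 named genes kept theirs. AKR1C1 was at 3.64, 3.82 and 4.52 against 5.45, 5.84 and 6.03, and fell in the lysate too. By smallest p, the highest uncalled values were those of NOLC1 (0.97, adjusted p = 0.051), RPS28, CCDC159, LINC03009, COPS5, TEX52, LINC01128, WDR36 and C2orf81.

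**Figure D4:**
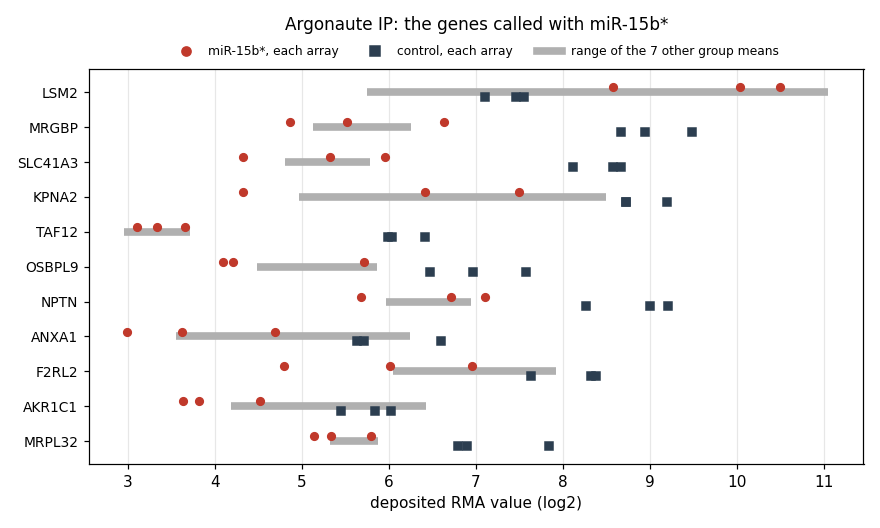
Deposited log2 values in the Argonaute IP of the 11 named genes that were called against the control, with 1 point per array for miR-15b* (circles) and control (squares) and grey bars for the range of the 7 other group means. TAF12, MRGBP and SLC41A3 in miR-15b* lie near the grey bars, and the control lies above them, while the bar of LSM2 reaches 11.05 because of miR-320.

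Few list members were called in the IP against the control, where 0.208% of all genes fell. Against the control, 1 of 16 synaptic organisers fell (CBLN2, -1.48) and 1 of 20 inflammatory mediators (TNFAIP3, -1.54), and 0 genes of DNA replication, mitosis, histones, ribosomal proteins or the published family targets were called, with list medians of -0.27, -0.29, -0.63, -0.56 and -0.36 beside -0.17 for all genes. Without IP replicate 1 these medians were -0.14, -0.15, -0.13, -0.22 and -0.13, beside -0.03, and CBLN2 and TNFAIP3 were not called. With the replicate block, 510 of all 11050 genes were lower and 11 higher. Lower were 7 of 39 replication, 3 of 30 mitosis, 3 of 35 histone and 1 of 22 published target genes. Of 55 ribosomal protein genes 6 were lower and 1 higher. In the self-test, a change of 1 on the log2 scale was recovered for 41.8% of genes in the IP and 82.1% in the lysate. That test drew independent noise for every array, without an array lying apart or deviations shared by replicate number, so recovery here may be lower. The plot of calls by array left out shows how far the IP count depends on single arrays.

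**Figure D5:**
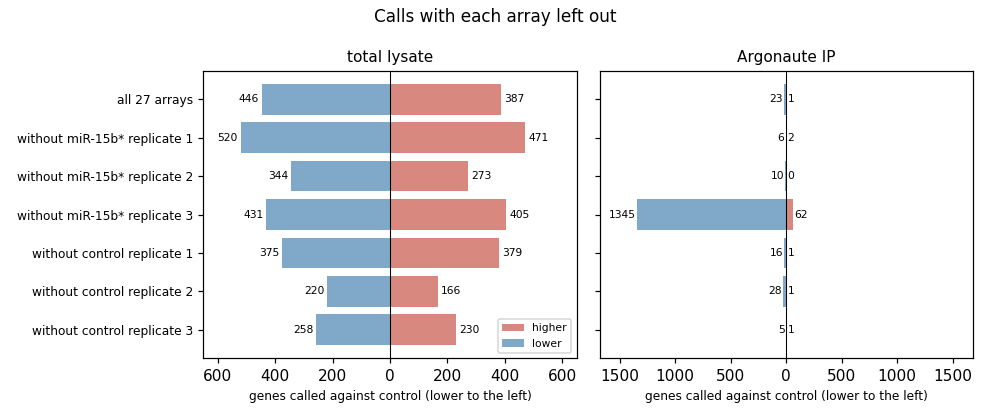
Number of genes called against control with all 27 arrays of a fraction and with each of the 6 compared arrays left out, higher to the right and lower to the left. The lysate counts stay between 386 and 991 in all, and the IP counts run from 6 to 1407, the latter without miR-15b* replicate 3.

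The IP arrays give a readout of the low lysate genes that did not enter their choice. For the 91 genes below all other lysates, the IP difference from control had a median of -0.36 (range -1.90 to 0.34), and 81.3% were below 0, against a median of -0.17 and 69.5% below 0 for all genes tested. Without IP replicate 1 the medians were -0.18 and -0.03. Against the mean of the 7 other IPs the 91 genes had a median of -0.17, close to the -0.11 of all genes. ETNK2 was at 4.73, 5.35 and 6.42 in the miR-15b* IPs and 6.04, 5.20 and 6.77 in the controls, and STRADB at 4.24, 5.32 and 6.69 against 6.51, 5.63 and 7.06. Both pairs of groups overlapped, and neither difference was called (adjusted p = 0.71 and 0.42). DYNLT1 was at 7.97, 9.12 and 9.26 against 9.24, 8.81 and 8.97, also with overlap (adjusted p = 0.84).

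The change in the IP was tested against the change in the lysate in a fit of all 54 arrays, in which 55 genes were called (0.498%), 16 with the higher change in the IP and 39 with the lower (0.145% and 0.353%). With single arrays left out the count ran from 10 (without control replicate 3) to 1835 (without miR-15b* replicate 3). After cyclic loess the split was 40 and 26. The largest on the higher side were LSM2, TDO2, CDH10, SCN9A and RALGAPA2, and on the lower side MRGBP, SLC41A3, TAF12, NPTN and KPNA2. LSM2 rose in the IP and fell in the lysate, while TDO2 and CDH10 fell in the lysate and were low in both IP groups, at 2.44, 2.09 and 1.91 against 2.42, 2.72 and 3.33 for TDO2. Without both arrays that lie apart, 17 genes were called, 12 of them among the 55.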

How the data were processed

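Total RNA and Argonaute-bound RNA were hybridised to Affymetrix Human Gene 1.0 ST arrays. Per the submitters' processing notes, RMA (Affymetrix Expression Console 1.1) gave the deposited values, read here as log2, since the base is not stated. The 33297 probe sets comprised 19460 with 1 gene symbol, 1754 with several and 12083 with none. Of the first kind, 19429 were matched by gene ID. For 769 genes the probe set with the highest mean was kept. The filter dropped 7367 of 18417 genes (the lowest 40% by mean of the 54 arrays, under 5.26) and left 11050. That mean spans both fractions, so some genes seen in the lysate alone were dropped. No array duplicated another.

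Each fraction was fitted apart on 27 arrays of 9 groups with limma 3.58.1 in R 4.3.3 (lmFit and eBayes; tables read with data.table, version 1.17.8) and Benjamini-Hochberg adjustment. Contrasts were miR-15b* against the control, the mean of the 7 others and, in the lysate, the mean of miR-16 and miR-195. The IP change minus the lysate change was fitted on 54 arrays, unpaired. An additive offset between fractions cancels there, but not a difference in scale. Named genes were the 10 largest called rises and falls against the control without overlap (filled by smallest p), the 10 largest called against the others, the 5 largest interactions, and list members. Genes outside the range of the other lysates, and CKS1B and GINS2 as promoter examples, were chosen after their values were seen. The members and the 23 gene lists were chosen with earlier results of these data known.

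Same-numbered miR-15b* and control arrays deviated together in the IP (correlations 0.17, 0.20 and 0.57), but not in the lysate (-0.19, -0.41 and 0.42). The labels do not say whether cultures were grown separately beyond calling the replicates biological. On simulated data 31.3%, 82.1% and 98.5% of changes of 0.5, 1 and 2 were recovered in the lysate comparison with the control and 2.99%, 41.8% and 87.9% in the IP one, over 11050 genes. The simulated noise was independent between arrays, so neither the arrays that lie apart nor deviations shared by replicate number were reproduced. Alternatives were other filters, eBayes with trend and robust settings, cyclic loess, array weights, only the arrays compared, the replicate block and each array left out. Target sites of the seed were not analysed here. Summaries and figures used Python 3.11.15, pandas 2.3.3, numpy 2.4.6 and matplotlib 3.10.9.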

Additional observations from a re-analysis of the deposited data

Results flagged for a closer look

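For 10 genes the change with miR-15b* differed between the IP and the lysate by a test of the difference itself in limma, as the 5 largest on each side. The IP change exceeded the lysate change for LSM2 (2.93, adjusted p = 7.8e-05), TDO2 (2.52, adjusted p = 0.042), CDH10 (2.45, adjusted p = 0.00018), SCN9A (2.04, adjusted p = 0.032) and RALGAPA2 (1.85, adjusted p = 0.021). It was below the lysate change for MRGBP (-3.97, adjusted p = 7.3e-08), SLC41A3 (-3.37, adjusted p = 2.2e-07), TAF12 (-3.17, adjusted p = 3.9e-12), NPTN (-2.99, adjusted p = 6.4e-05) and KPNA2 (-2.64, adjusted p = 0.032). For MRGBP, SLC41A3 and TAF12 the control IPs lay above the means of all other groups, so these differences are not particular to miR-15b*. TDO2 and CDH10 were low in both IP groups, where a large fall could hardly show.

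Without IP replicate 1 and lysate replicate 2 of miR-15b*, the calls of TDO2 (1.74, adjusted p = 0.55), SCN9A (1.01, adjusted p = 0.66), RALGAPA2 (1.36, adjusted p = 0.37) and KPNA2 (-1.84, adjusted p = 0.27) were lost. SCN9A, a sodium channel gene, was at 4.23, 2.50 and 2.11 in the miR-15b* IPs, so replicate 1 stood above the others. LSM2 (3.63), CDH10 (1.76), MRGBP (-3.48), SLC41A3 (-2.78), TAF12 (-3.02) and NPTN (-2.66) kept their calls.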

How the results depend on the processing

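Which side held more calls changed with the processing. The IP against the 7 others had 4 higher and 12 lower, but 59 and 34 with cyclic loess and 20 and 1 without replicate 1. The interaction had 16 and 39, but 40 and 26 with cyclic loess and 112 and 53 with no filter. The lysate against the others had 968 and 771, but 330 and 421 without replicate 2. FOXO and atrophy genes in the lysate against control had 2 and 0, but 2 and 3 without the 3 arrays that lie apart. Array weights, which did not converge, gave 5236 calls in the lysate against control, 5880 against the 7 others and 7335 against miR-16 with miR-195, and 5, 2 and 9 in the IP against control, the IP against the others and the interaction. Only the arrays compared gave 50 (lysate against control), 518 (miR-16 with miR-195), 0 (IP against control) and 2 (interaction). The replicate block gave 1509 in the lysate against control, 2525 against the others and 2642 against miR-16 with miR-195, 521 and 146 in the IP against control and the others, and 35 for the interaction. In the lysate, same-numbered arrays of all groups correlated at a mean of 0.31, but the miR-15b* and control arrays at -0.19, -0.41 and 0.42, so they were not taken as pairs. Cyclic loess gave 75 and 93 in the IP against control and the others. No filter gave 165 interactions. Without the 3 lysate arrays that lie apart (replicate 2 of miR-15b*, miR-16 and miR-103, an alternative chosen after seeing the data) 1299 genes were called against control, and 17 interactions without both miR-15b* arrays that lie apart.

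With each array left out, counts ran from 386 to 991 in the lysate against control, 751 to 2013 against the others and 1508 to 2643 against miR-16 with miR-195, from 6 to 1407 in the IP against control, 9 to 965 against the others, and 10 to 1835 for the interaction. Among lists in the lysate against control, mitosis falls were 7 with the block, histone falls 2 with the block, 2 with cyclic loess and 4 without the 3 arrays, and AP-1 rises 3 without replicate 2 of miR-15b*. Without that array, histones (15), ribosomal proteins (10) and interferon genes (5) moved against the 7 others, counts chosen after seeing the data. Signal over background was not analysed here.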

Other observations

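The array carries a probe set for the MIR15B hairpin, which was left out by the filter on low values. It was at 3.26, 4.66 and 4.02 in the miR-15b* lysates and at 3.33, 3.07 and 2.93 in the controls, groups that overlapped (0.87 ± 0.29, limma adjusted p = 0.076 without the filter). In the IP it was at 1.61, 1.77 and 1.55 against 1.73, 1.45 and 1.43. A probe set for the precursor does not measure a transfected mature strand.

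In the lysate against the control 3.5% of all genes rose and 4.04% fell. Of 27 sterol synthesis genes and 55 ribosomal protein genes, 0 were called (medians -0.10 and 0.03). Of 30 genes of the unfolded protein response XBP1 rose (0.65), and of 21 p53 targets PLK3 rose (0.95) and TP53INP1 fell (-0.79). Of 46 matrix genes 4 rose, among them the crosslinking enzyme LOXL2 (0.89) and the matricellular THBS1 (0.76), and 2 fell, SPP1 (-1.24), which encodes osteopontin, and TIMP2 (-0.34). LIF, a cytokine, rose by 1.11. Without lysate replicate 2 of miR-15b*, XBP1 (0.063), PLK3 (0.13), TP53INP1 (0.11), TIMP2 (0.074) and LIF (0.067) were not called (each value an adjusted p). Within the range of no other lysate on the high side stood FURIN, a proprotein convertase, at 10.66, 11.09 and 10.49 with miR-15b* and at most 10.34 elsewhere, and PTGES, which makes prostaglandin E, at 11.11, 11.54 and 10.91 and at most 10.75 elsewhere. Both were chosen after their values were seen.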
